A study of Mus musculus with 40 samples.

Results

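The 9 genes described here, Slc12a3, Trpm6, Pvalb, Calb1, Trpv5, S100g, Slc8a1, Klhl3 and Wnk4, carry or regulate the handling of sodium chloride, calcium and magnesium in the distal convoluted tubule and the connecting tubule of the kidney. They were picked by symbol from a table of 55401 genes, all 9 were found, and all 9 passed the filter of a mean of at least 10 counts that 17769 genes passed over the 40 libraries. RNA was sequenced from the renal cortex of 40 male mice on the C57BL/6J background, each library coming from 1 mouse, with 5 mice in each of 8 groups. Akita mice are heterozygous for the Ins2-Akita mutation, which misfolds insulin in the beta cells and leaves the mice diabetic without obesity, and the WT mice were their littermates. From 6 to 22 weeks of age both genotypes were gavaged with the ethanol vehicle (10% ethanol in water), with MitoGamide at 10 mg/kg in that vehicle, with water, or with MitoQ, whose dose is not given in the sources used here. MitoGamide is a mitochondria-targeted scavenger of reactive dicarbonyls such as methylglyoxal, and MitoQ is a mitochondria-targeted antioxidant. The groups are named by genotype and gavage, for example Akita ethanol. The ethanol and MitoGamide groups are called the ethanol arm and the water and MitoQ groups the water arm.

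The distal convoluted tubule reabsorbs salt through the thiazide-sensitive cotransporter NCC, the product of Slc12a3. The kinase Wnk4 and the ubiquitin ligase adaptor Klhl3, which marks Wnk4 for degradation, set how active this cotransporter is. The early part of the segment takes up magnesium through the channel Trpm6 and holds the calcium buffer parvalbumin (Pvalb). The late part and the connecting tubule take up calcium through the channel Trpv5, carry it across the cell bound to the calbindins (Calb1 and S100g), and hand it to the blood side through the sodium-calcium exchanger Slc8a1 and calcium pumps. Renal losses of calcium and magnesium are a known feature of diabetes with glucose in the urine.

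Libraries held between 9106654 and 24321424 estimated counts. Akita water replicate 2, WT water replicate 3 and WT MitoQ replicate 3 stood apart from the rest, with a median correlation with the other libraries below 0.9446 and with 43.1%, 37.3% and 49.2% of their counts from mitochondrial genes. Comparisons of groups and correlations that use these 3 libraries are therefore also given without them where the call changes. The 9 genes were detected in every library. The lowest counts in any library were 32 for Pvalb, 61 for Trpv5, 299 for Trpm6, 366 each for S100g and Klhl3, 745 for Wnk4, and 932 or more for the other genes.

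Promoters of 2 genes are shown because S100g rose in Akita mice, the difference of Slc12a3 between genotypes did not pass the test, and both hold matches to a motif. Both are the 250 bases before the RefSeq start site, 5′ to 3′ on the gene's strand, on GRCm38.p6. The S100g promoter is chrX:162964600-162964849 on the minus strand and the Slc12a3 promoter is chr8:94328958-94329207 on the plus strand. Capitals mark matches on either strand to the 5 motifs searched.
S100g: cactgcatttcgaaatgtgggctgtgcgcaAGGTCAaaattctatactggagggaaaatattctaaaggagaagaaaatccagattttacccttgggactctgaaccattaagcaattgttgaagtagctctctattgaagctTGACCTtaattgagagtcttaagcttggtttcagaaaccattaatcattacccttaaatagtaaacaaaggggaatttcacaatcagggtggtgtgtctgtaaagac
Slc12a3: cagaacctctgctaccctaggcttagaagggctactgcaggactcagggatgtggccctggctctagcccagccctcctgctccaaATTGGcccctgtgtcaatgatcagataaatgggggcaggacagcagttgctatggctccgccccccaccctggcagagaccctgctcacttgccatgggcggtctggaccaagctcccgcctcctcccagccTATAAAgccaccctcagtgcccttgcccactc
The capitals in S100g are the nuclear receptor half-site AGGTCA, once on the strand shown (220 to 215 bases before the start) and once on the other strand (107 to 102 bases before it). Those in Slc12a3 are a TATA box, TATAAA (32 to 27 bases before the start), and a CCAAT box on the other strand (164 to 160 bases before it). AGGTCA was found on either strand in 14.02% of the same 250 bases of 32851 RefSeq promoters, TATAAA in 12.37% and CCAAT in 33.85%. The HNF1 half-site GTTAAT (6.43%) and the cyclic AMP response element TGACGTCA (1.55%) were in none of the 8 members' promoters that RefSeq's table held, and outside S100g and Slc12a3 the only match was TATAAA in Trpv5, 43 to 38 bases before its start. No promoter was given for Calb1. A match describes letters in a window and says nothing of a factor at work there.

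Levels can be compared between genes only per length, and so CPM (a library's counts scaled to a common total with TMM factors) were divided by the summed exon length in kb (RPKM). S100g stood highest with a median of 419 RPKM over the 40 libraries, followed by Slc12a3 at 72.2 and Calb1 at 64.04 RPKM. Slc8a1 (28.0), Wnk4 (27.0), Klhl3 (9.93), Pvalb (7.48), Trpm6 (5.53) and Trpv5 (5.29) came next in that order of median RPKM. The medians of Slc12a3 and Calb1, of Slc8a1 and Wnk4, and of Trpm6 and Trpv5 lay well within each other's range over libraries. So did those of Klhl3 and Pvalb and those of Pvalb and Trpm6. The widest spread was that of Calb1, whose highest library was 14.7 times its lowest, and the narrowest that of Klhl3 at 2.28 times. The length used is the union of the exons of all annotated transcripts, 18807 bases for Slc8a1 with 6 transcripts and 11119 for Slc12a3 with 7, against 480 for S100g with 1, and RPKM falls as this length grows.

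**Figure D1:**
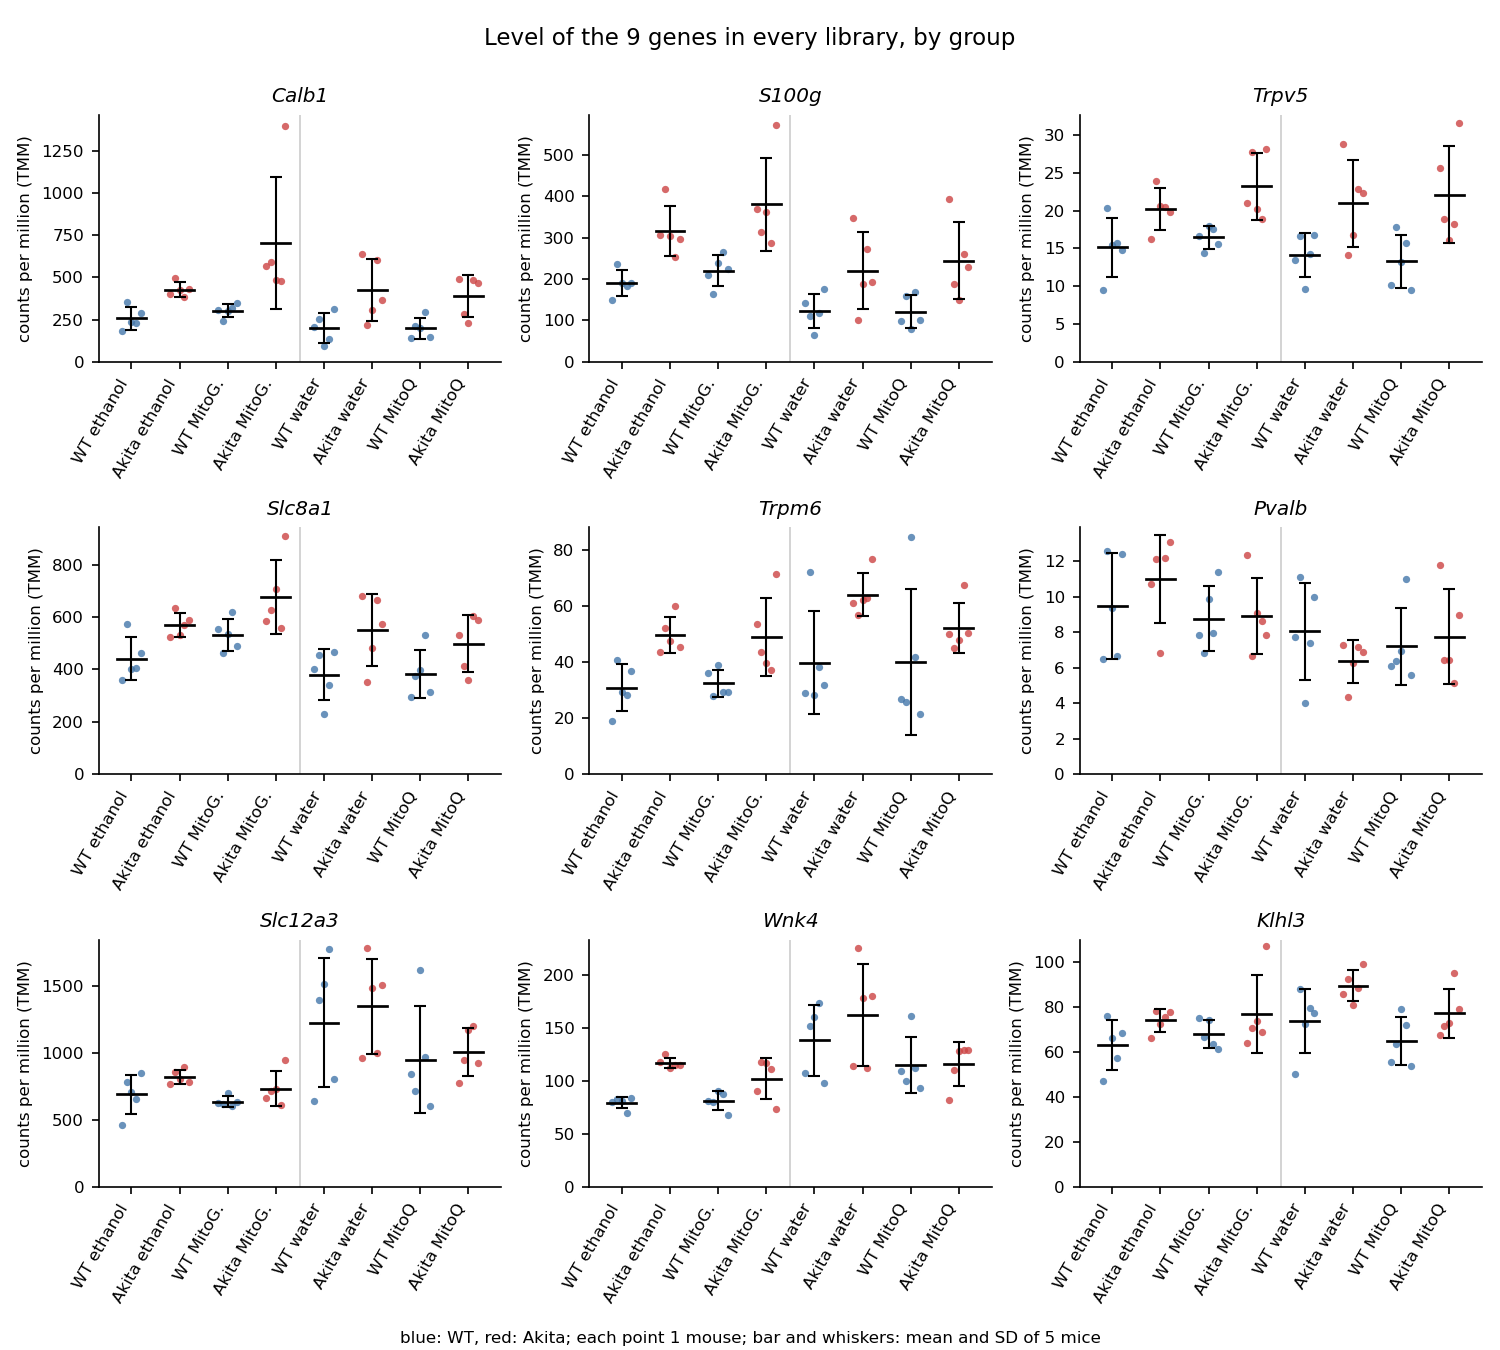
Level of each gene in CPM (TMM-scaled, linear axis from 0) in the 8 groups, with 1 point per mouse, a bar for the mean and whiskers for the SD of 5 mice. Calb1 and S100g sit higher in the Akita (red) than in the WT (blue) group of every treatment, whereas Slc12a3 and Wnk4 are spread most widely in the water arm, right of the grey line.

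Diabetes was compared with WT within each of the 4 treatments and once over all 4. Over the 4 treatments, 7 of the 9 genes rose in Akita mice and none fell (edgeR's quasi-likelihood test, Benjamini-Hochberg adjusted p under 0.05 over all genes tested), where 11% of the 17769 genes tested were called higher and 11.8% lower. Calb1 rose 2.0-fold, S100g 1.80-fold, Trpm6 1.51-fold, Trpv5 1.47-fold, Slc8a1 1.33-fold, Wnk4 1.22-fold and Klhl3 1.18-fold. Slc12a3 (1.12-fold) and Pvalb (1.00-fold) were not called. The median log2 fold change of the 9 genes was 0.41, against -0.022 over all genes tested. Dropping any 1 of the 40 libraries, or the 3 that stood apart, left all 7 genes called. In whole cortex, more cells of a type and more RNA per cell cannot be told apart.

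Within single treatments, 5 of 9 genes rose on the ethanol vehicle (8.18% of all genes tested were called higher there), 4 of 9 under MitoGamide (7.71%), 0 of 9 on the water vehicle (0.186%) and 0 of 9 under MitoQ (0.265%). With 0 called by edgeR, 5 of the 9 had an unadjusted p under 0.05 on water and 3 under MitoQ, and DESeq2 called 0 and 2 (Calb1, 0.98, adjusted p = 0.0175, and S100g, 1.01, 0.0277). Over all genes tested, 1384 of 18304 on water and 1644 of 18143 under MitoQ had such a p, and DESeq2 called 354 and 415. With all 40 libraries in 1 fit, which shares 1 estimate of the spread, edgeR called 1 of the 9 on ethanol (Wnk4), 1 on water (Calb1, 1.09 on the log2 scale, adjusted p = 0.0407), 2 under MitoGamide (Calb1 and S100g) and 2 under MitoQ (Trpv5, 0.75, 0.0458, and S100g, 1.02, 0.0415). The same fit called 873 of 17747 genes on ethanol, 543 of 18304 on water, 2071 of 16674 under MitoGamide and 299 of 18143 under MitoQ. In it the calls on ethanol for Calb1 (0.75, 0.17), S100g (0.76, 0.0932), Trpm6 (0.70, 0.132) and Slc8a1 (0.39, 0.286) were lost, as were those under MitoGamide for Trpm6 (0.62, 0.115) and Trpv5 (0.52, 0.0721). Under MitoGamide the 1286 genes called higher became 750 without Akita MitoGamide replicate 2 and 698, 623, 727 and 727 without WT MitoGamide replicates 1, 2, 3 and 4. Every one of the 5 Akita values lay above every WT value for 4 of 9 genes on ethanol (5.52% of all genes tested), 3 of 9 under MitoGamide (5.4%), 0 on water (0.934%) and 0 under MitoQ (1.39%). The test of whether the genotype difference depended on treatment called 0 of the 9 genes and 0% of all genes (edgeR, F test of 3 interaction terms). At an unadjusted p under 0.05 edgeR had 883 genes, with none of the 9 among them (the lowest p was 0.176, for Wnk4), and DESeq2 called 13 genes, again with none of the 9. The difference between 5 calls on ethanol and 0 on water is therefore not shown to be a difference between treatments.

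Measures of the library were set beside these calls. Under MitoGamide the share of counts from mitochondrial genes was 28.0% to 35.4% in Akita and 24.6% to 27.8% in WT mice, and the summed counts of olfactory receptor genes, most of which are silent in kidney, were 248.6 to 445 and 448 to 748 CPM of the library total. Neither measure overlapped between these groups. On ethanol the mitochondrial share was 21.6% to 28.7% in Akita and 20.1% to 22.6% in WT mice, and the olfactory receptor counts were 420.1 to 587 and 401 to 676 CPM, so that both overlapped. For the mitochondrial share the overlap rests on Akita ethanol replicate 4 (21.6%). Replicates 1, 2, 3 and 5 (22.9%, 25.7%, 28.7% and 26.1%) lay above every WT ethanol library. The part of both measures in the differences between genotypes was not tested.

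**Figure D2:**
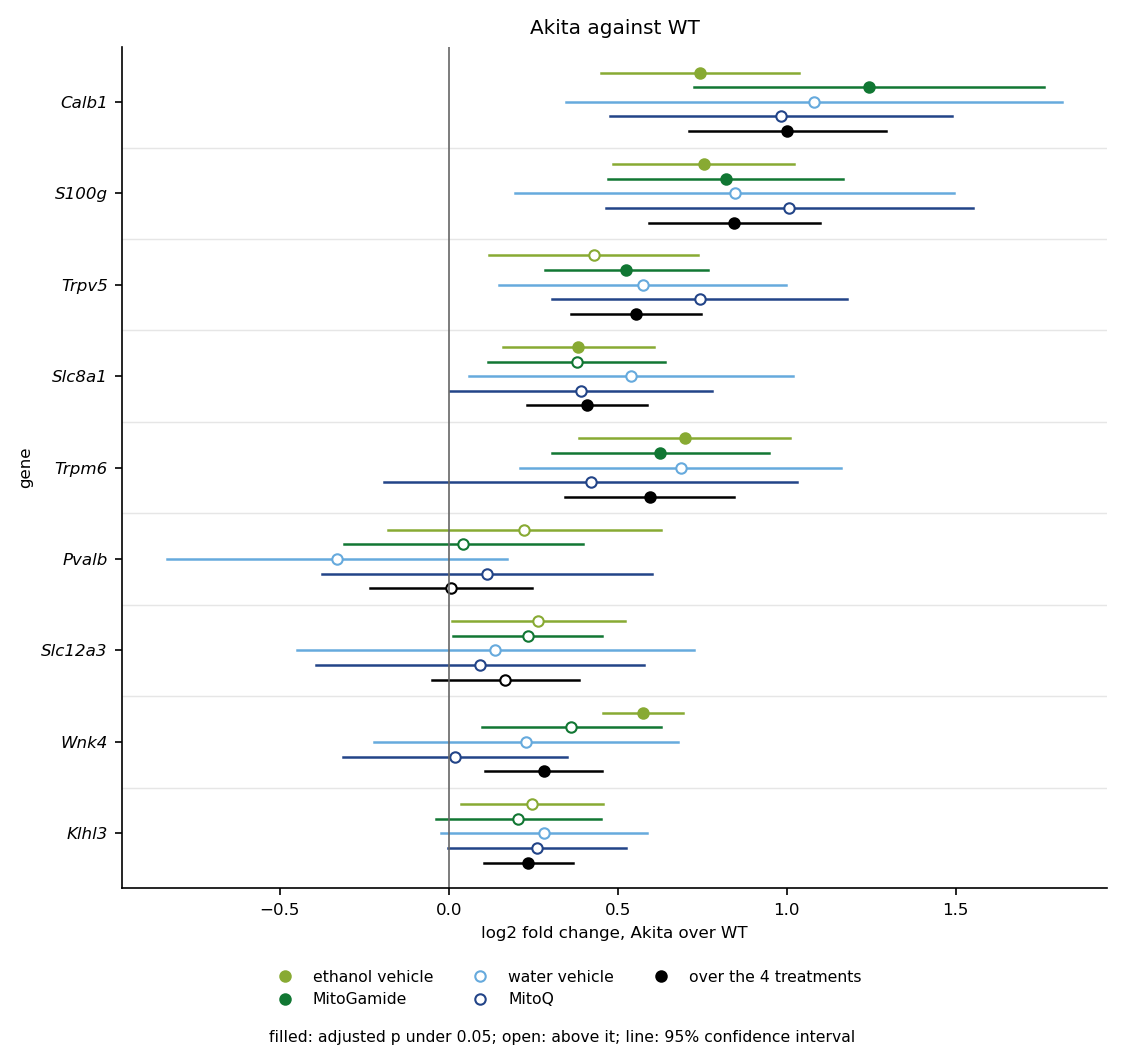
Log2 fold change of Akita over WT for each gene (points) with its normal 95% confidence interval (lines) under each of the 4 treatments and over all 4 (black), filled where the adjusted p was under 0.05. The lines are narrower than edgeR's F test implies. The black points of Calb1 (1.00) and S100g (0.85) lie farthest to the right and that of Pvalb (0.0072) lies close to 0.

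Calb1 (ENSMUSG00000028222.2, chr4:15881264-15908064 on GRCm38) encodes calbindin-D28k, which binds calcium in the cytosol of the late distal convoluted and connecting tubule. On the ethanol vehicle its 5 WT mice were at 181, 357, 237, 227 and 287 CPM and its 5 Akita mice at 402, 497, 423, 384 and 429.7 CPM. Under MitoGamide the WT mice were at 306, 241, 299, 320.4 and 347 CPM and the Akita mice at 570.5, 591, 482, 481 and 1399.8 CPM. In both pairs of groups every Akita mouse stood above every WT mouse, and 1 Akita mouse on MitoGamide, replicate 5, stood far above its group. On water the WT mice were at 208, 254, 95.3, 135 and 314 CPM and the Akita mice at 638, 217, 307, 603 and 364 CPM. Under MitoQ the WT mice were at 143, 209, 202, 296 and 144 CPM and the Akita mice at 489.6, 285, 229.5, 486 and 466 CPM. Here the groups overlapped, with 3 of 5 Akita mice above every WT mouse on each treatment. The log2 fold change was 0.74 on ethanol (standard error 0.15, adjusted p = 0.00440, edgeR), 1.24 under MitoGamide (0.26, 0.0111), 1.08 on water (0.37, 0.394) and 0.98 under MitoQ (0.26, 0.141). Over the 4 treatments it was 1.00 (95% confidence interval 0.71 to 1.29, adjusted p = 1.70e-06, edgeR). Without Akita MitoGamide replicate 5 the change under MitoGamide was 0.85 and kept its call. The group means ran from Akita MitoGamide down to WT MitoQ with all 4 Akita groups above all 4 WT groups, although each pair of neighbours in that order differed by less than the larger SD of both.

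S100g (ENSMUSG00000040808.4, chrX:162961992-162964599) encodes calbindin-D9k, the smaller calcium-carrying protein of the same cells and of the intestine. On ethanol the WT mice were at 148, 237, 190.4, 183 and 189 CPM and the Akita mice at 307, 418, 305, 254 and 297 CPM. Under MitoGamide the WT mice were at 210.0, 163, 238, 266 and 225 CPM and the Akita mice at 370.0, 315, 363, 286 and 572 CPM. The groups did not overlap in either comparison. On water the WT mice were at 142, 111, 65.8, 117 and 176 CPM and the Akita mice at 348, 101, 187, 272 and 192 CPM. Under MitoQ the WT mice were at 97.8, 159, 79.2, 169.6 and 99.98 CPM and the Akita mice at 392, 188, 149, 259 and 229 CPM. In the water arm 4 of 5 Akita mice stood above every WT mouse on each treatment, and the lowest Akita mouse on water was replicate 2, a library that stood apart. Its log2 fold change was 0.75 on ethanol (adjusted p = 0.00218, edgeR), 0.82 under MitoGamide (0.0119), 0.85 on water (0.507) and 1.01 under MitoQ (0.168). Taking all 4 treatments, it was 0.85 (0.59 to 1.10, adjusted p = 2.93e-06, edgeR). S100g lies inside Ctps2, a gene of the opposite strand with a mean of 326 counts against 3723 for S100g. The library kit keeps strand, but the strand setting of the counting is not given in the sources used here.

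Trpv5 (ENSMUSG00000036899.10, chr6:41652173-41680769) is the apical calcium channel that lets calcium into these cells. It was at 15.1 ± 3.88 CPM in WT ethanol and 20.2 ± 2.74 CPM in Akita ethanol mice (SD, n = 5 here and in the rest of the text). It was at 16.5 ± 1.46 and 23.2 ± 4.43 CPM under MitoGamide, where all Akita mice stood above all WT mice. On water the means were 14.1 ± 2.91 and 21.0 ± 5.74 CPM, and under MitoQ 13.3 ± 3.55 and 22.1 ± 6.41 CPM. The 4 Akita means were again all above the 4 WT means, with Akita ethanol and WT MitoGamide the only neighbours in the order set apart by more than the larger SD. On the log2 scale the difference was called under MitoGamide (0.53, adjusted p = 0.0168, edgeR) and over the 4 treatments (0.55, 0.36 to 0.75, 3.20e-05). On ethanol it was 0.43 (0.0821), on water 0.57 (0.477) and under MitoQ 0.74 (0.221), none of them called by edgeR in the main test, which has no replicate block. With all 40 libraries in 1 fit the call was under MitoQ and not under MitoGamide, with changes about as large (0.75 and 0.52). On ethanol it was called without WT ethanol replicate 2 (0.56, adjusted p = 0.0206, edgeR), the WT mouse with the highest value.

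Slc8a1 (ENSMUSG00000054640.15, chr17:81373105-81738377) encodes the sodium-calcium exchanger NCX1 of the basolateral membrane, which is also made in vessel walls. It was at 441 ± 82.2 CPM in WT ethanol and 569 ± 45.1 CPM in Akita ethanol mice, and at 532 ± 60.7 and 677 ± 142 CPM under MitoGamide. It was at 379.5 ± 97.1 and 551 ± 136 CPM on water and at 382 ± 92.9 and 499 ± 109 CPM under MitoQ. Akita and WT mice overlapped under all 4 treatments, and 2 to 4 of 5 Akita mice stood above every WT mouse. As a log2 fold change this was 0.38 on ethanol (adjusted p = 0.0354, edgeR) and 0.41 over the 4 treatments (0.23 to 0.59, 7.00e-04). It was 0.38 under MitoGamide (0.0759), 0.54 on water (0.645) and 0.39 under MitoQ (0.628). The call on ethanol was lost in 6 of 10 fits that left out 1 library (Akita ethanol replicates 2, 4 and 5 and WT ethanol replicates 1, 3 and 4), with changes of 0.32 to 0.39 and adjusted p-values of 0.0533 to 0.0886 (edgeR). It was also lost with library totals in place of TMM factors (0.35, adjusted p = 0.0817, edgeR), and under MitoGamide DESeq2 called the gene (0.37, 0.0434).

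Trpm6 (ENSMUSG00000024727.9, chr19:18749983-18892511) is the apical magnesium channel of the distal convoluted tubule. On ethanol the WT mice were at 19.2, 40.8, 29.4, 28.3 and 36.8 CPM and the Akita mice at 43.5, 52.1, 47.5, 59.9 and 45.5 CPM. Under MitoGamide the WT mice were at 36.3, 27.9, 38.9, 29.3 and 29.5 CPM and the Akita mice at 53.7, 43.5, 39.6, 37.2 and 71.2 CPM. The groups were apart on ethanol, and under MitoGamide 4 of 5 Akita mice stood above every WT mouse. On water the WT mice were at 29.0, 71.9, 28.2, 38.1 and 31.8 CPM and the Akita mice at 61.1, 56.6, 62.1, 62.9 and 76.8 CPM. Under MitoQ the WT mice were at 26.9, 25.7, 84.6, 41.9 and 21.4 CPM and the Akita mice at 49.98, 45.1, 48.0, 67.5 and 50.2 CPM. In each of these WT groups a single mouse was high, replicate 2 on water and replicate 3 under MitoQ, the latter a library that stood apart, and the other 4 WT mice were below all 5 Akita mice. The log2 fold change was 0.70 on ethanol (adjusted p = 0.00942, edgeR), 0.63 under MitoGamide (0.0263), 0.69 on water (0.413) and 0.42 under MitoQ (0.832). With the treatments joined it was 0.59 (0.35 to 0.84, 4.49e-04). Without WT water replicate 2 the change on water was 1.01 (adjusted p = 0.02, edgeR), and without WT MitoQ replicate 3 that under MitoQ was 0.85 (0.0447). The call under MitoGamide was lost without WT MitoGamide replicate 2 (0.58, adjusted p = 0.0665, edgeR) and without replicate 4 (0.59, 0.0661).

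Pvalb (ENSMUSG00000005716.16, chr15:78191114-78206400), the calcium buffer of the early distal convoluted tubule, had the smallest difference of the 9 genes over the 4 treatments (0.0072 on the log2 scale, 95% confidence interval -0.23 to 0.25, adjusted p = 0.978, edgeR). It was at 9.50 ± 2.98 CPM in WT ethanol and 10.99 ± 2.47 CPM in Akita ethanol mice and at 8.78 ± 1.83 and 8.91 ± 2.12 CPM under MitoGamide. On water it was at 8.06 ± 2.72 and 6.38 ± 1.21 CPM and under MitoQ at 7.20 ± 2.19 and 7.75 ± 2.66 CPM. The groups overlapped under every treatment. Its log2 fold change was 0.22 on ethanol, 0.043 under MitoGamide, -0.33 on water and 0.11 under MitoQ, with adjusted p-values from 0.509 to 0.988 (edgeR). Pvalb is also strongly expressed in skeletal muscle, whose 5 marker genes (Acta1, Ckm, Myh4, Mylpf and Tnnt3) summed to at most 5.02 CPM in any library.

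Slc12a3 (ENSMUSG00000031766.4, chr8:94329201-94366214), which encodes NCC, was not called between genotypes under any treatment, and its group means were higher in the 4 groups of the water arm than in the 4 of the ethanol arm. On ethanol the WT mice were at 464, 779.6, 705, 652 and 848 CPM and the Akita mice at 767, 854, 804, 893 and 783 CPM. Under MitoGamide the WT mice were at 623, 620.0, 702, 602 and 634 CPM and the Akita mice at 665, 715, 729, 607 and 946 CPM. The groups overlapped in both, although the Akita ethanol mice were all above the WT median. On water the WT mice were at 639.8, 1397, 1516, 1774 and 802 CPM and the Akita mice at 963, 1779, 1482, 1002 and 1509 CPM. Under MitoQ the WT mice were at 844, 715, 1621, 969 and 599 CPM and the Akita mice at 777, 945, 1173, 1203 and 920.2 CPM. The groups overlapped here too, and the WT water mice alone were spread from 639.8 to 1774 CPM. The log2 fold change of Akita over WT was 0.27 on ethanol (adjusted p = 0.189, edgeR), 0.23 under MitoGamide (0.176), 0.14 on water (1.00) and 0.093 under MitoQ (0.983). In the fit of all treatments it was 0.17 (-0.049 to 0.38, 0.304), so that a rise of up to 0.38 lies within its interval. With 1 library left out the change was 0.15 to 0.35 on ethanol and 0.13 to 0.29 under MitoGamide.

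Wnk4 (ENSMUSG00000035112.17, chr11:101260567-101277409), the kinase upstream of NCC, had the smallest p of the 9 genes on the ethanol vehicle. There the WT mice were at 79.9, 82.7, 81.4, 70.1 and 83.7 CPM and the Akita mice at 118, 125, 112, 115 and 115 CPM. Under MitoGamide the WT mice were at 81.3, 79.8, 90.4, 88.1 and 68.0 CPM and the Akita mice at 90.3, 118, 117, 112 and 73.9 CPM. On ethanol the groups lay far apart, whereas under MitoGamide replicate 5, the mouse with the highest Calb1, had the lowest Wnk4 of the Akita mice. On water the WT mice were at 107, 152, 160.5, 174 and 97.9 CPM and the Akita mice at 115, 226, 178, 113 and 180.5 CPM. Under MitoQ the WT mice were at 109.5, 100.4, 161, 113 and 93.8 CPM and the Akita mice at 82.2, 111, 128, 129.5 and 129 CPM. The genotypes overlapped in the water arm. On the log2 scale the difference was 0.57 on ethanol (standard error 0.060, adjusted p = 5.81e-05, edgeR), 0.36 under MitoGamide (0.0901), 0.23 on water (1.00) and 0.019 under MitoQ (0.997). For all mice together it was 0.28 (0.11 to 0.45, adjusted p = 0.0167). Without Akita MitoGamide replicate 5 the change under MitoGamide was 0.46 and was called (adjusted p = 0.00971, edgeR). On water the change was 0.081 to 0.33 with 1 library left out. Other settings of the fit gave 0.067 to 0.24 on water and 0.016 to 0.27 under MitoQ. The antisense gene Gm11615 overlaps Wnk4 with a mean of 28.1 counts, against 1759 for Wnk4.

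Klhl3 (ENSMUSG00000014164.15, chr13:58000228-58113592), the adaptor that brings Wnk4 to its ubiquitin ligase, differed the least among mice. It was at 63.1 ± 11.2 CPM in WT ethanol and 74.1 ± 4.97 CPM in Akita ethanol mice and at 68.2 ± 6.23 and 77.0 ± 17.2 CPM under MitoGamide. On water it was at 73.7 ± 14.2 and 89.6 ± 6.91 CPM and under MitoQ at 64.8 ± 10.7 and 77.2 ± 10.8 CPM. The groups overlapped under every treatment, yet the 4 Akita means were all above the 4 WT means. The log2 fold change lay between 0.21 and 0.28 under each of the 4 treatments, was called by edgeR in none of them in the main test, which has no replicate block, and was 0.24 over all 4 (0.11 to 0.37, adjusted p = 0.00734, edgeR). On ethanol it was 0.25 (adjusted p = 0.138, edgeR), and without WT ethanol replicate 2 it was 0.33 and called (0.0463). With 1 library left out the change was 0.16 to 0.33 on ethanol and 0.065 to 0.26 under MitoGamide. Other settings of the fit gave 0.11 to 0.21 under MitoGamide, 0.14 to 0.30 on water and 0.26 to 0.47 under MitoQ.

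Other genes of the same pathways were taken from 2 lists. Of 20 genes of magnesium and calcium handling, 19 were tested over the 4 treatments and 5 rose and 2 fell in Akita mice, where 11% of all genes tested rose and 11.8% fell, with a median log2 fold change of 0.030 against -0.022 over all genes tested. Among those that rose were the calcium pump Atp2b4 (0.49, adjusted p = 7.19e-08, edgeR), the magnesium transporter Slc41a1 (0.51, 8.08e-07), the calcium channel Trpv6 (0.86, 4.26e-05) and the transporter Slc41a3 (0.56, 0.00325). Trpv6 and Slc41a3 were scarce, with medians of 1.11 and 2.06 CPM over all libraries, against 17.2 CPM for Trpv5. Egf, whose product stimulates magnesium uptake through Trpm6, fell by 0.25 on the log2 scale (adjusted p = 0.00627, edgeR). Of the 12 genes that control the thiazide-sensitive cotransporter, 3 rose and none fell, against the same 11% and 11.8% of all genes, with a median of 0.047. They were Sgk1, an aldosterone-induced kinase (1.11, adjusted p = 1.90e-08, edgeR), Stk39, the kinase SPAK that phosphorylates NCC (0.35, 1.31e-06), and Wnk1 (0.31, 0.00196).

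Marker genes of cell types were counted in the same fit, in which 11% of all genes were called higher and 11.8% lower in Akita mice. Of the 6 connecting tubule markers 5 rose over the 4 treatments, but 4 of these 5 are members of the 9 genes, and the remaining one was the sodium channel subunit Scnn1g (0.53, adjusted p = 3.52e-07, edgeR). Klk1 had a change of -0.10 (0.488). Of the 6 markers of the distal convoluted tubule 3 rose, Trpm6, Emx1 (0.29, 0.00291) and Tmem52b (0.33, 0.00591). Of the 6 thick ascending limb markers 2 fell, Cldn10 by 0.82 and Umod by 0.50 on the log2 scale, and of the 6 proximal tubule markers 2 fell, Slc34a1 by 0.29 and Lrp2 by 0.38. In each of these lists 2 of the 6 markers had a log2 fold change above 0. The median change was -0.21 for the thick ascending limb list and -0.12 for the proximal tubule list. The 6 proximal tubule markers together were at 7476 to 14983 CPM in WT mice (median 12675) and at 7537 to 12388 CPM in Akita mice (median 9854). The 6 thick ascending limb markers together were at 974 to 3029 CPM (median 1766) and 969 to 1928 CPM (median 1439). None of these markers was at 0. The 6 distal convoluted tubule markers together were at 656 to 1987 CPM in WT (median 983) and 896 to 1986 CPM in Akita mice (median 1223). The 6 connecting tubule markers together were at 1090 to 2261 CPM (median 1782) and 1328 to 4490 CPM (median 2123). Both of these sums include members of the 9 genes. The part of such shifts in the levels of the 9 genes was not tested.

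MitoGamide was compared with the ethanol vehicle and MitoQ with water, in each genotype, to ask whether a drug moved the 9 genes. These comparisons share their groups with those of genotype. None of the 4 comparisons called any of the 9 genes, by edgeR or by DESeq2. MitoGamide in Akita mice gave calls for 1.26% of all genes tested (214 genes, and 0 to 802 in the fits without 1 library), with 3564 of 17051 at an unadjusted p under 0.05 and 1022 called by DESeq2, and the 9 genes ran from -0.30 for Pvalb to 0.72 for Calb1 on the log2 scale. For Calb1, the only one of the 9 with an unadjusted p under 0.05, the 95% confidence interval was 0.22 to 1.23 and the adjusted p 0.146 (edgeR), and without Akita MitoGamide replicate 5 the change was 0.33. In WT mice, MitoGamide gave calls for 0% of the genes (edgeR, with 1841 genes at an unadjusted p under 0.05, 73 called by DESeq2), and the 9 genes ran from -0.12 for Slc12a3 to 0.26 for Slc8a1. MitoQ gave calls for 0% of the genes in Akita mice (edgeR, with 363 genes at an unadjusted p under 0.05 and 0 called by DESeq2) and the 9 genes ran from -0.48 for Wnk4 to 0.28 for Pvalb. In WT mice it likewise gave 0% (575 genes at an unadjusted p under 0.05, 2 called by DESeq2), with the 9 genes from -0.36 for Slc12a3 to 0.011 for Slc8a1. Of the 9 genes, 1 had an unadjusted p under 0.05 with MitoGamide in WT mice, 1 with MitoQ in Akita mice and 0 with MitoQ in WT mice. The intervals reach from -1.02 (Slc12a3 under MitoQ in WT mice) to 1.23 (Calb1 under MitoGamide in Akita mice), so that changes of that size are not excluded for those genes. They are normal intervals, narrower than edgeR's F test implies.

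**Figure D3:**
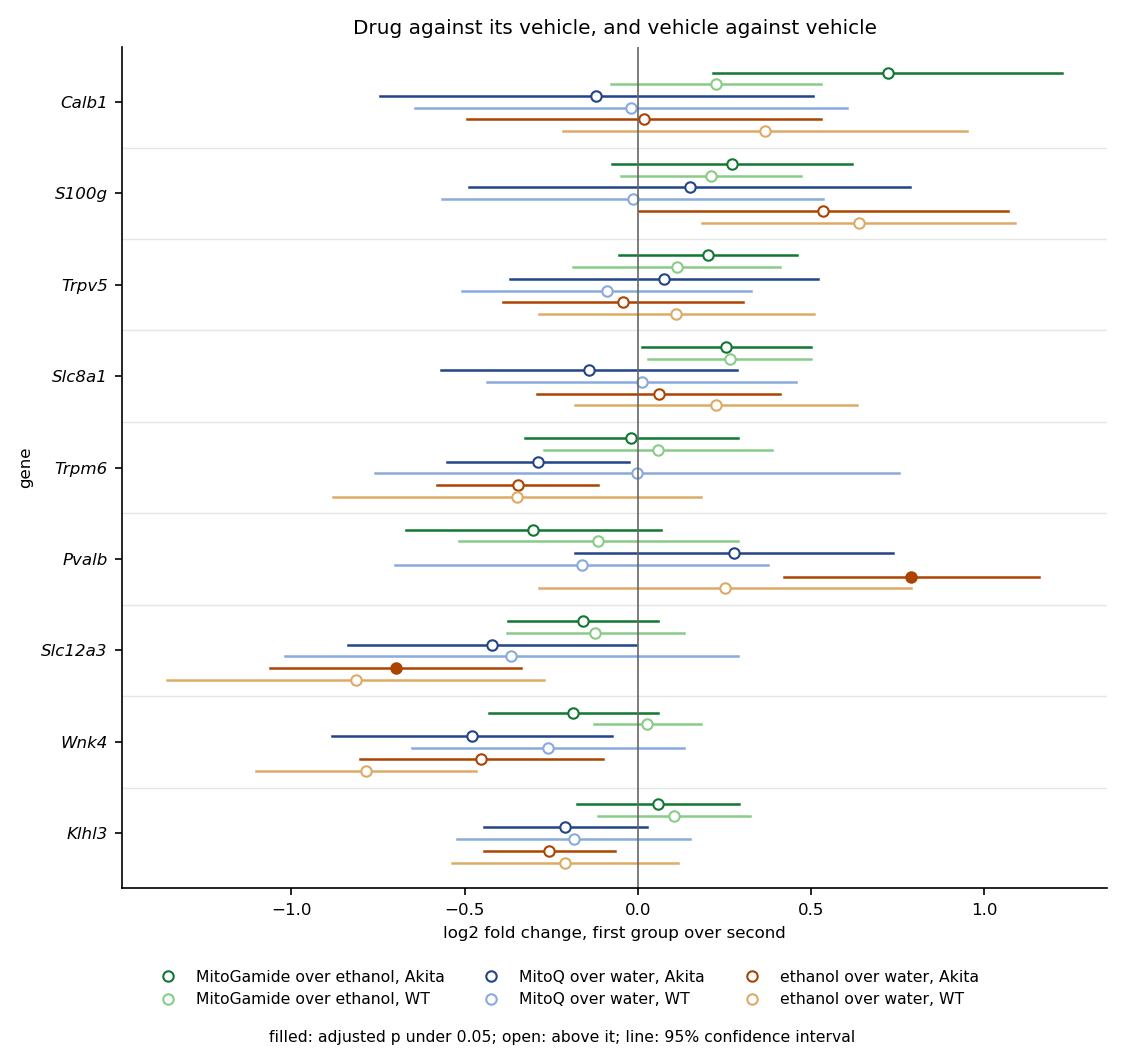
Log2 fold change (points) with normal 95% confidence interval (lines) of each gene for MitoGamide over ethanol, MitoQ over water and ethanol over water, in Akita (dark) and WT (light) mice, filled where the adjusted p was under 0.05. The lines are narrower than edgeR's F test implies. The 2 filled points are Slc12a3 (-0.70) and Pvalb (0.79) for ethanol over water in Akita mice.

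The vehicles were also compared, although the labels do not say whether both arms were treated and sequenced side by side, so that vehicle and arm cannot be told apart. In Akita mice Slc12a3 was lower on ethanol than on water by -0.70 on the log2 scale (adjusted p = 0.0376, edgeR) and Pvalb was higher by 0.79 (0.0328), so that 2 of the 9 genes were called where 12.7% of all genes tested were. That share was unstable, since the 2283 genes called became 1 to 6496 when 1 library was left out. Library measures also differed here, with olfactory receptor counts of 420.1 to 587 CPM in Akita ethanol and 604 to 1077 in Akita water mice (no overlap) and a mitochondrial share of 21.6% to 28.7% against 24.2% to 43.1%, and their part in these calls was not tested. In WT mice Slc12a3 had a change of -0.81 (adjusted p = 0.149, edgeR), Wnk4 of -0.78 (0.145), S100g of 0.64 (0.15) and Pvalb of 0.25 (0.525). There edgeR called 0 of the 9 genes and 0% of all genes, with 3 of the 9 and 4959 of all genes at an unadjusted p under 0.05, and DESeq2 called 1 of the 9 (Wnk4) and 724 genes. Leaving out 1 library gave 0 to 5216 genes there, and a change of 0.080 to 0.39 for Pvalb. In Akita mice Wnk4 (-0.45), Trpm6 (-0.35) and Klhl3 (-0.26) lay below 0 and S100g (0.54) above it without a call by edgeR, and Calb1, Trpv5 and Slc8a1 lay between -0.043 and 0.060. DESeq2 called 4 of the 9 and 4264 of 17928 genes in Akita mice, adding Trpm6 (-0.33, adjusted p = 0.0382) and Klhl3 (-0.24, 0.0299). Both calls in Akita mice were lost in 8 of 10 fits that left out 1 library (each Akita ethanol replicate and Akita water replicates 2, 3 and 5). Without Akita water replicate 2, which stood apart, the changes were -0.57 for Slc12a3 (adjusted p = 0.0731, edgeR) and 0.70 for Pvalb (0.0593). In the other 7 of these fits the changes were about as large as with all libraries, at -0.73 to -0.63 for Slc12a3 and 0.72 to 0.91 for Pvalb, and 6 of the 7 called 1 or 2 genes in all. The replicate block also lost both calls in Akita mice (Slc12a3 -0.66, adjusted p = 0.0767, and Pvalb 0.77, 0.07, edgeR). So did library totals (-0.55, 0.112, and 0.89, 0.0605), and with no filter on low counts that of Slc12a3 was lost (-0.57, 0.0849). Without WT water replicate 5, Slc12a3 (-0.93, 0.0302), S100g (0.81, 0.0235) and Wnk4 (-0.88, 0.0157) were called in WT mice, in a fit that called 5216 of 18225 genes.

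How the 9 genes varied among mice of 1 group was measured by the correlation of log2 CPM after each group's mean was taken out, over 40 libraries and 36 pairs of genes. Of the 36 pairs, 22 had an adjusted p under 0.05 in a two-sided permutation test within groups. The smallest r in size among these 22 was 0.41, and 32.8% of all 157859796 pairs of the 17769 genes had one at least as large. Without the 3 libraries that stood apart 23 pairs were called, the pair gained being Trpm6 and Pvalb (r = 0.38, adjusted p = 0.0703, and 0.42, 0.0382, without them, by permutation). The share of all gene pairs was not computed without these libraries. The calcium genes moved together, with a Pearson r of 0.92 for Calb1 and Slc8a1 (Spearman's rho 0.91, adjusted p = 7.2e-05 by permutation), 0.85 for Calb1 and S100g (rho 0.81), 0.81 for S100g and Slc8a1 (rho 0.75) and 0.78 for Calb1 and Trpv5 (rho 0.77). Among the other pairs called were Trpm6 and Klhl3 (r = 0.75, rho 0.71), Slc12a3 and Wnk4 (r = 0.70, rho 0.67) and Slc12a3 and Klhl3 (r = 0.70, rho 0.68). Trpm6 and Wnk4 (r = 0.26, adjusted p = 0.208 by permutation) and Klhl3 and Wnk4 (r = 0.27, 0.177) were not called, and Trpm6 and Klhl3 were each also called with Slc8a1 (r = 0.51 and 0.47) and with Calb1 (r = 0.46 and 0.43). These 4 pairs with the calcium genes had r of 0.71 to 0.81 in the ethanol arm and of 0.22 to 0.44, with no call, in the water arm (adjusted p = 0.138 to 0.469 by permutation). Klhl3 and Wnk4 had r of -0.22 (0.585) in the ethanol arm and 0.53 (0.0397) in the water arm. Pvalb was called with Calb1 (r = 0.57), Trpv5 (0.55), S100g (0.56) and Slc8a1 (0.60), with r of 0.21 to 0.30 and no call in the ethanol arm and of 0.70 to 0.76 in the water arm. Wnk4 ran against S100g (r = -0.67, rho -0.50) and Calb1 (r = -0.56, rho -0.43). Neither pair was called in the ethanol arm (r = -0.32, adjusted p = 0.41, and r = -0.54, 0.19, by permutation), and both were in the water arm (r = -0.77, 0.002, and r = -0.57, 0.0499). Without the 2 libraries farthest from the median of the first gene, r was 0.91 for Calb1 and Slc8a1, 0.82 for Calb1 and S100g, 0.65 for Slc12a3 and Wnk4 and -0.58 for S100g and Wnk4.

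The correlations were also computed within each arm. The 3 libraries that stood apart all lie in the water arm. The 4 calcium genes correlated with each other in both arms, with r between 0.66 and 0.85 in the ethanol arm and between 0.76 and 0.96 in the water arm (20 mice each). Slc12a3 and S100g had an r of 0.60 in the ethanol arm (adjusted p = 0.0191 by permutation) and of -0.62 in the water arm (0.0131), so that the r over both arms, -0.38, describes neither. Without the 3 libraries that stood apart, the r over both arms was -0.14. Farthest from the group mean in Slc12a3 in the ethanol arm were WT ethanol replicate 1 (-0.54, with S100g at -0.34) and Akita MitoGamide replicate 5 (0.38, with S100g at 0.63). The r of the ethanol arm without these mice was not computed. Slc12a3 and Wnk4 had an r of -0.21 in the ethanol arm (0.534) and 0.91 in the water arm (0.00018). In the water arm 18 pairs were called, and 11 without the 3 libraries that stood apart (17 mice). Without them Slc12a3 and S100g had an r of -0.45 there and lost the call (adjusted p = 0.123 by permutation), as did Slc12a3 and Trpm6 (0.64, 0.0946), Pvalb with Calb1 (0.60, 0.0664), S100g (0.55, 0.123) and Slc8a1 (0.59, 0.123), and Wnk4 with Calb1 (-0.52, 0.123) and Klhl3 (0.48, 0.167). The pairs of the 4 calcium genes kept r of 0.69 to 0.95 and their calls, and Slc12a3 and Wnk4 had an r of 0.88 (0.00672). Whether r differed between arms was not itself tested. The share of all gene pairs with an r as large was not computed within an arm. The counts of pairs called within an arm can therefore not be read as particular to the genes described here.

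**Figure D4:**
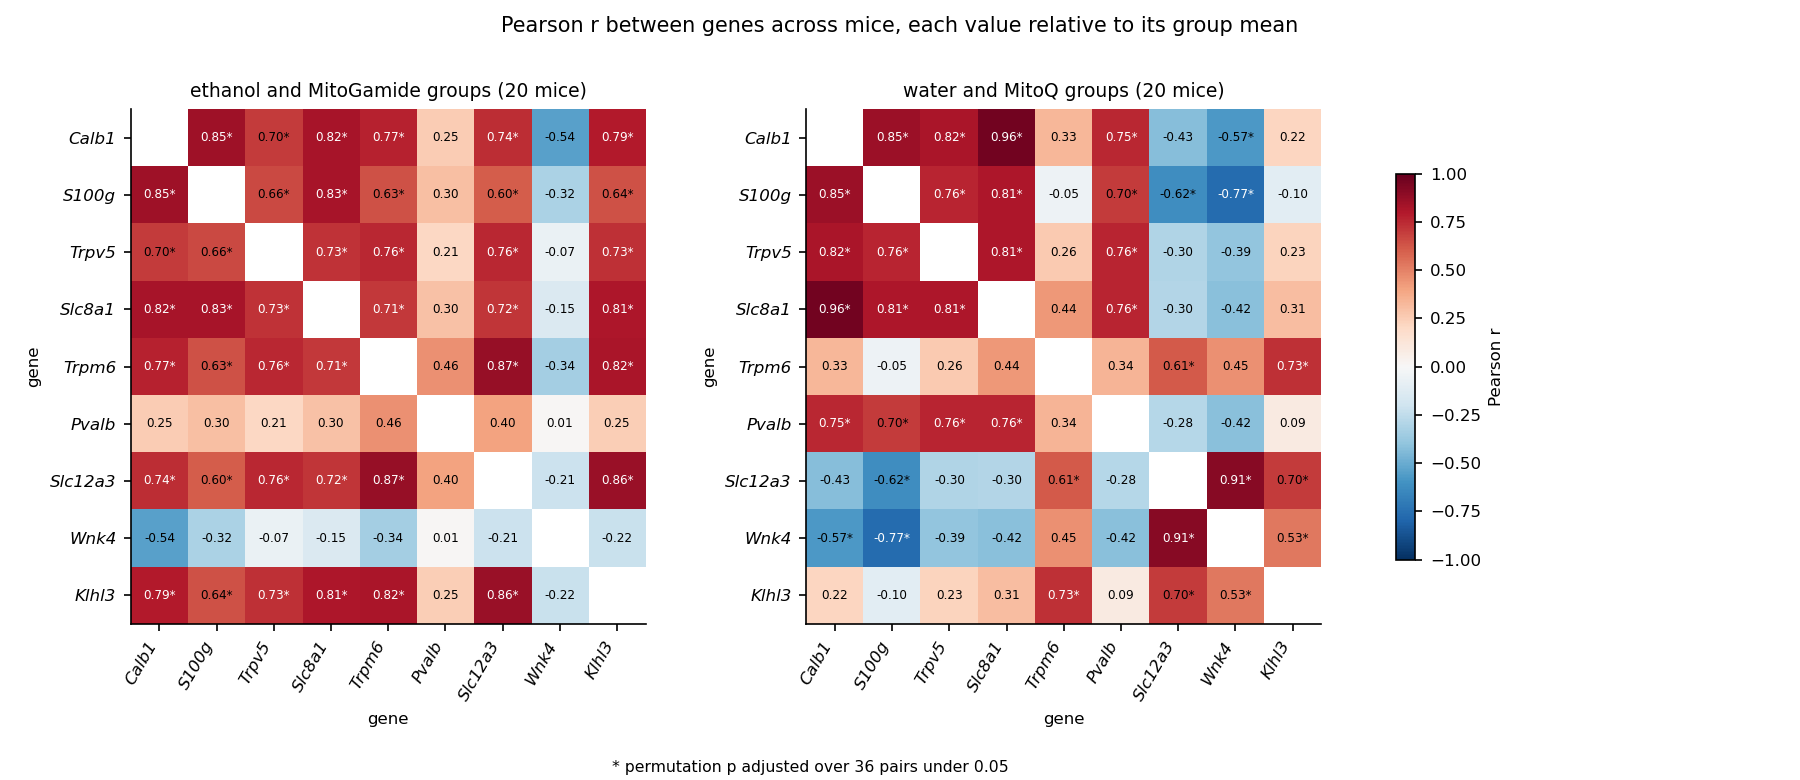
Pearson r between each pair of the 9 genes across mice, with each value taken relative to its group mean, in the ethanol arm (left) and the water arm (right), from -1 (blue) to 1 (red). The block of Calb1, S100g, Trpv5 and Slc8a1 is red in both arms, whereas the row of Slc12a3 is red against these genes in the ethanol arm and blue in the water arm.

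**Figure D5:**
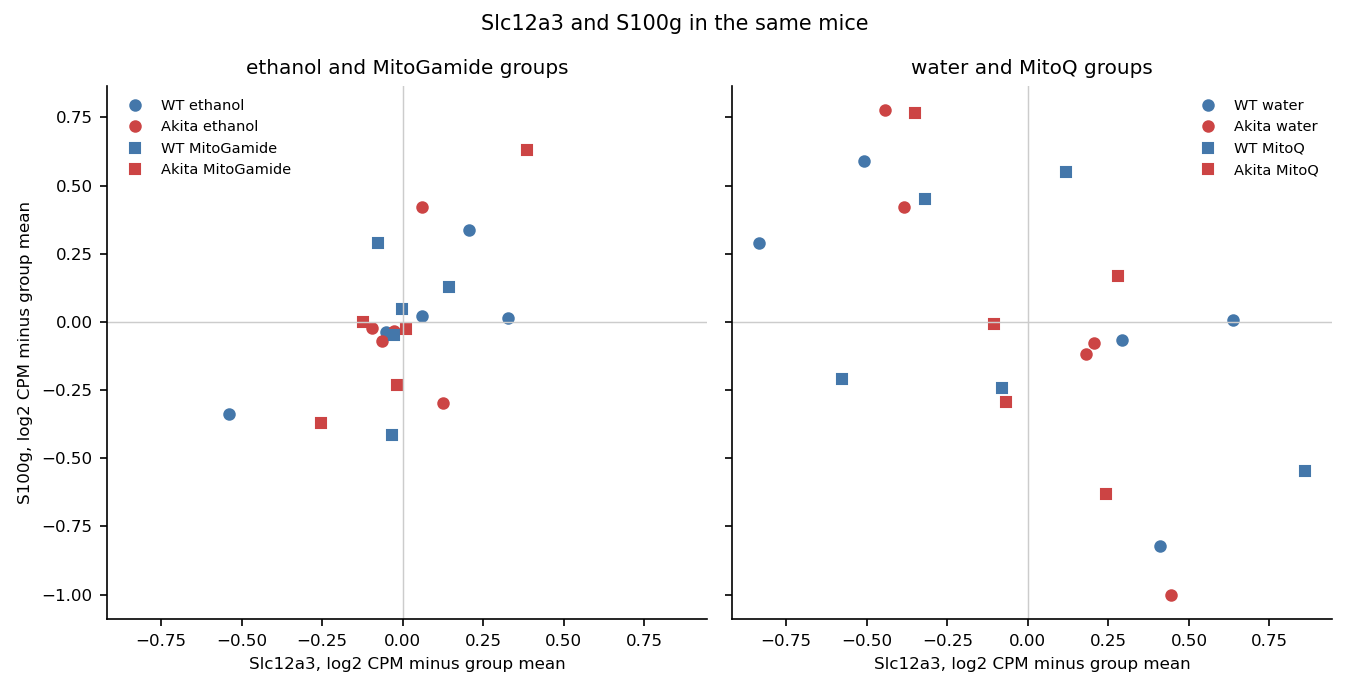
Slc12a3 (x axis) against S100g (y axis), both as log2 CPM minus the group mean, with 1 point per mouse in the ethanol arm (left) and the water arm (right). The points rise from left to right in the ethanol arm (r = 0.60) and fall in the water arm (r = -0.62), where they are spread more widely.

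The same library measures, relative to the group mean, were correlated with the 9 genes, with p-values adjusted over these 18 correlations. The mitochondrial share correlated with Slc12a3 (r = 0.67, rho 0.51, adjusted p = 0.00931 by permutation), Wnk4 (r = 0.54, 0.0204, but rho 0.39, 0.0643) and Klhl3 (r = 0.47, rho 0.40, 0.0151) and against S100g (r = -0.55, rho -0.43, 0.0151). Pvalb passed against it by rho (-0.37, adjusted p = 0.0436 by permutation) but not by r (-0.36, 0.0726). The olfactory receptor counts correlated against S100g (r = -0.66, rho -0.60, 0.00756), Calb1 (r = -0.58, rho -0.54, 0.00931), Trpv5 (r = -0.58, rho -0.56, 0.00828), Slc8a1 (r = -0.52, rho -0.45, 0.0159) and Pvalb (r = -0.52, rho -0.48, 0.0151). They correlated with Slc12a3 (r = 0.53, rho 0.52, 0.0151) and Wnk4 (r = 0.52, rho 0.43, 0.0151). Without the 2 libraries farthest from the median of the measure, r was 0.55 for Slc12a3, 0.43 for Wnk4, 0.46 for Klhl3 and -0.44 for S100g with the mitochondrial share, and -0.56 for S100g, -0.44 for Calb1, -0.52 for Trpv5, -0.36 for Slc8a1, -0.37 for Pvalb, 0.46 for Slc12a3 and 0.45 for Wnk4 with the olfactory receptor counts. Within arms, the r of S100g with the olfactory receptor counts was -0.13 in the ethanol arm and -0.77 in the water arm, and that of Slc12a3 was 0.12 and 0.61. With the mitochondrial share, the r of S100g was 0.36 in the ethanol arm and -0.69 in the water arm, that of Slc12a3 was 0.13 and 0.74, that of Klhl3 0.41 and 0.57 and that of Wnk4 -0.50 and 0.69. With the olfactory receptor counts the r of Calb1, Trpv5, Slc8a1 and Pvalb lay between -0.063 and 0.0098 in the ethanol arm and between -0.75 and -0.66 in the water arm, and that of Wnk4 was -0.19 and 0.67. Without the 3 libraries that stood apart, the mitochondrial share was called with Klhl3 (r = 0.49, adjusted p = 0.0325 by permutation, but rho 0.42, 0.0663) and no longer with Slc12a3 (0.45, 0.123), Wnk4 (0.27, 0.404) or S100g (-0.25, 0.318). The olfactory receptor counts were then called with S100g (-0.63, 0.0146), Calb1 (-0.49, 0.0325), Trpv5 (-0.51, 0.0325), Slc12a3 (0.54, 0.0325) and Wnk4 (0.55, 0.0325, but rho 0.42, 0.097) and no longer with Slc8a1 (-0.38, 0.123) or Pvalb (-0.36, 0.12). The share of all genes that correlate as strongly with these measures was not computed. These calls can therefore not be read as particular to the 9 genes. The part of these measures in the correlations between genes was not tested.

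Among 17769 genes, those whose log2 CPM over the 40 libraries was most like that of a member were found by Pearson r, given as a description since the libraries share groups, arms and library quality. For Calb1 they were Slc8a1 (0.94), Iqgap2 (0.94) and Defb1 (0.93), and for Slc8a1 they were Calb1 (0.94), Defb1 (0.91) and Wnk1 (0.89). For S100g they were Car2 (0.93), Pgrmc1 (0.92) and Calb1 (0.91), and for Trpv5 Calb1 (0.87), Slc8a1 (0.83) and Clu (0.82). For Slc12a3 they were Slc4a9 (0.94), Rgs11 (0.93) and Slc4a3 (0.92), and for Wnk4 Cdc42bpg (0.92), Slc4a3 (0.91) and Itgb4 (0.91). Trpm6 was most like Inpp5k (0.86), Sdk1 (0.85) and Optn (0.84), and Klhl3 was most like Trpm6 (0.82), Setd7 (0.80) and Bmp15 (0.79). Pvalb had no gene as near, with Coro1b (0.72), Plbd1 (0.72) and Ankmy2 (0.71) the closest. Among the 3 closest of 17769 genes stood Slc8a1 for Calb1, Calb1 for S100g and for Slc8a1, and both Calb1 and Slc8a1 for Trpv5, whereas S100g and Trpv5 were in none of these sets. Slc12a3, Wnk4, Trpm6 and Pvalb had none of the other 8 genes among theirs.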

How the data were processed

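The authors trimmed reads from stranded libraries, quantified them against GENCODE transcripts on GRCm38 with kallisto 0.46.1, and summed transcripts to genes in R 4.0.2. The deposited values are estimated counts per gene with no normalization, and they were whole numbers. The strand setting of the counting is not given in the sources used here. Columns were matched to samples by name and groups were taken from the labels.

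The main test was edgeR 4.0.16 (glmQLFit and glmQLFTest, R 4.3.3) with TMM factors, fitted on the libraries of each comparison (all 40 for the fits over treatments) with genes averaging under 10 counts in them left out. P-values were adjusted by Benjamini-Hochberg over all genes tested, and a gene was called at an adjusted p under 0.05. The script was tested on simulated data. Correlations used log2(CPM + 0.5) relative to group means, with 100000 permutations within groups in Python 3.11.15 (numpy 2.4.6, scipy 1.17.1, pandas 2.3.3). Alternatives were DESeq2 1.42.0, RLE factors, other filters, all 40 libraries in 1 fit, a replicate block and leaving out each library. Library totals without TMM, and leaving out the 3 libraries that stood apart, were added after the data were seen. Depth ran from 9106654 to 24321424 counts, which gave the scarcest gene, Pvalb, 32 to 267 counts per library. Positions are from GENCODE M21, which held 99.5% of the identifiers.

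The 9 genes and all lists were chosen with earlier results of these data known. All 9 genes are named. Of each pathway list, the text names the genes called over the 4 treatments, at most the 6 with the smallest p (1 of these is not reported here), and for each member the 3 genes with the highest r. Lists of marker genes of the nephron segments and of other cells of the kidney, of skeletal muscle, fat and adrenal cortex are given as counts and sums.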

Additional observations from a re-analysis of the deposited data

Results flagged for a closer look

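In each of the 9 genes and 8 groups, the highest and the lowest of the 5 mice were compared with the others by Dixon's test, and 4 of the 72 sets of 5 values held a mouse set apart, where 3.6 are expected by chance at 1 in 20. Calb1 was at 1399.8 CPM in Akita MitoGamide replicate 5, against 481 to 591 CPM in the other 4 mice of its group. Klhl3 was at 107 CPM in the same mouse, against 63.98 to 73.9 CPM. This mouse was also the highest of its group in Slc12a3, Trpm6, Trpv5, S100g and Slc8a1, and the lowest in Wnk4. Trpm6 was at 67.5 CPM in Akita MitoQ replicate 4, against 45.1 to 50.2 CPM in the others. Wnk4 was at 70.1 CPM in WT ethanol replicate 4, against 79.9 to 83.7 CPM. The cause of these values was not tested.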

How the results depend on the processing

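Over the 4 treatments the count of 7 genes called was the same under every alternative run and in all 40 fits without 1 library. With all 40 libraries in 1 fit, the count called between genotypes was 1 on ethanol, 1 on water, 2 under MitoGamide and 2 under MitoQ, and 2 for ethanol against water in WT mice. DESeq2 called 2 under MitoQ, and 4 and 1 for the vehicles in Akita and WT mice. For the vehicles in Akita mice the count was 1 with no filter on low counts and 0 with library totals, without the libraries that stood apart and with the replicate block. The changes of the lost calls are given with the comparison of the vehicles. Without the libraries that stood apart, 1 gene was called under MitoQ. Leaving out 1 library gave 0 to 1 on water, 0 to 1 under MitoQ, 0 to 5 for the vehicles in Akita and 0 to 3 in WT mice, where the 5 came without Akita water replicate 1 (6496 of 17953 genes called) and the 3 without WT water replicate 5 (5216 of 18225). Of the 36 pairs of genes, 22 were called. In the water arm without those libraries 11 were called, from 17 mice and with no share of all gene pairs computed. The cause of these moves was not tested.

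Signs turned in some fit for 25 of the 99 values of single genes, none of them called. In the 4 drug comparisons this held for 15 of 36 values, of which only Slc8a1 for MitoQ in WT mice is given here. With library totals, which put the median log2 fold change of all genes between -0.15 and 0.17 over the comparisons, the log2 fold changes were -0.0093 for Slc12a3 on water, -0.037 for Pvalb under MitoGamide, -0.0028 for Pvalb over the 4 treatments, -0.13 for Slc8a1 (MitoQ in WT mice) and 0.0512 for Trpv5 (vehicles in Akita mice, 0.0509 with no filter). With at least 10 counts in every library they were -0.0014 for Pvalb over the 4 treatments and -0.013 for Calb1 (vehicles, Akita). Without the libraries that stood apart they were -0.14 for Calb1 and -0.0496 for Slc8a1 (vehicles, Akita) and -0.12 for Slc8a1 (MitoQ, WT). Leaving out 1 library gave -0.0102 to 0.30 for Slc12a3 on water and -0.031 to 0.35 under MitoQ. For Pvalb it gave -0.10 to 0.16 under MitoGamide, -0.0856 to 0.32 under MitoQ and -0.0247 to 0.0646 over the 4 treatments. It gave -0.0434 to 0.15 for Wnk4 under MitoQ and -0.14 to 0.11 for Slc8a1 (MitoQ, WT). For the vehicles it gave -0.14 to 0.21 for Calb1, -0.14 to 0.10 for Trpv5 and -0.0496 to 0.15 for Slc8a1 in Akita mice and -0.0227 to 0.24 for Trpv5 in WT mice.

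To see whether the replicate number pairs mice, same-numbered mice were correlated, and in no comparison did all 5 pairs correlate above 0.1. That rule cannot exclude that some mice are paired. The correlations ran from -0.50 to 0.71 over the comparisons, and 3 of 5 pairs were above 0.1 on water (up to 0.52) and for MitoQ in Akita mice (up to 0.71). With the number as a replicate block, 7 of the 9 genes were called on ethanol, with Trpv5 (0.46, adjusted p = 0.0079, edgeR) and Klhl3 (0.26, 0.0417) gained, and 5 under MitoGamide, with Wnk4 gained (0.34, 0.0375). Over all genes the block fits called 2566 of 17747 (1278 higher) and 2282 of 16674 (1213 higher). Counts over all genes moved by more than 1.5 times in several fits. On ethanol 2910 genes were called between genotypes and 873 with all 40 libraries in 1 fit. On water 101 were called, 354 by DESeq2, 543 with all 40 libraries, 32 with the block and 23 without the libraries that stood apart. Under MitoQ the same counts were 101, 415, 299, 48 and 270, and 63 with library totals. For MitoGamide in Akita mice they were 214, 1022, 41 and, with the block, 0. For MitoQ in WT mice 0 were called, 2 by DESeq2, 27 with all 40 libraries and 1 with the block, and for MitoGamide in WT mice 0 and 73 by DESeq2. The test of treatment dependence called 0, 13 by DESeq2 and 6 without the libraries that stood apart. For the vehicles in Akita mice 2283 were called, 4264 by DESeq2, 1352 with no filter on low counts, 185 with library totals, 132 without the libraries that stood apart and 0 with the block. For the vehicles in WT mice 0 were called, 724 by DESeq2, 1570 with all 40 libraries and 2 with the block. Leaving out 1 library gave 1248 to 2822 genes between genotypes under MitoGamide, where 2386 were called, 32 to 94 on water and 35 to 270 under MitoQ. Over the 4 treatments 4045 were called and 2618 with library totals.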

Other observations

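Marker genes of further cell types were measured in the same libraries. Over the 4 treatments, where 11% of all genes tested were called higher in Akita mice and 11.8% lower, 3 of 5 principal cell markers rose in Akita mice, the water channels Aqp2 (0.98 on the log2 scale, adjusted p = 1.26e-07, edgeR) and Aqp3 (0.33, 0.00183) and the sodium channel subunit Scnn1b (0.34, 0.000168). The 5 markers together were at 89.5 to 189 CPM in WT mice (median 126) and at 140.2 to 256 CPM in Akita mice (median 191). Of the 5 podocyte markers 3 rose, among them Nphs1 (0.47, 0.00117), which encodes nephrin of the filtration slit. Of the 4 macrophage markers 2 fell, Csf1r by 0.71 and Adgre1 by 0.43 on the log2 scale. Of the 5 intercalated cell markers 1 rose, of the 5 endothelial markers 2 rose and 1 fell, and of the 4 stromal markers 1 rose. The markers of skeletal muscle and fat were too low to be tested, and the 1 adrenal cortex marker tested was not called. These marker genes were named after their values were seen.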
